A study of Mus musculus with 8 samples.

Results

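The RGS family, for regulators of G protein signalling, was followed through 8 bead arrays of mouse vascular smooth muscle cells. The members were 10 genes, Rgs2, Rgs3, Rgs4, Rgs5, Rgs10, Rgs12, Rgs14, Rgs16, Rgs17 and Rgs19, taken as every probe whose platform gene symbol is one of these names. This gave 17 probes of the 25697 on the array, and 10 of the 16593 gene symbols in the annotation. Rescued cells (4 arrays) were primary smooth muscle cells lacking PMCA4, a plasma membrane calcium pump encoded by Atp2b4, into which PMCA4a cDNA had been electroporated. Knockout cells (4 arrays) were PMCA4-deficient cells without that cDNA. Both groups were primary cells of the carotid artery, from male C57bl6 mice without PMCA4. Both were synchronised by serum, received serum and PDGF-BB, and were collected late in G1/S. The labels give no ages, and they do not say whether replicates were separate cultures or animals. The p-values therefore set a group difference only against the spread of these samples, and that spread may be technical. Mock-electroporated knockout cells were not analysed here, and the effects of electroporation and of PMCA4a cannot be told apart.

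RGS proteins switch off G protein signals. A receptor loads GTP onto a G alpha subunit, and the RGS domain speeds the hydrolysis of that GTP, so that more RGS protein generally means a shorter signal. In vascular smooth muscle they are known for limiting contraction and growth signals of vasoconstrictor receptors. The members fall into the small R4 proteins (Rgs2, Rgs3, Rgs4, Rgs5, Rgs16), the R12 proteins (Rgs10, Rgs12, Rgs14) and the RZ proteins (Rgs17, Rgs19).

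Of the 17 probes, 6 were kept for testing, each the only kept probe of its gene (Rgs3, Rgs10, Rgs12, Rgs16, Rgs17, Rgs19) and each detected on all 8 arrays at a detection p under 0.05. The other 11 were detected on no array. They were all probes of Rgs2, Rgs4, Rgs5 and Rgs14 and 7 of the 8 probes of Rgs3. No member probe was kept through 1 group alone. The promoters of the member that rose, Rgs10, and of the 2 whose rescued arrays lay farthest apart, Rgs16 and Rgs17, are shown because each of these genes has 1 start in the RefSeq promoter table (build GRCm38.p6), whereas Rgs3 has 2. Each line gives the 250 bases before the start, 5′ to 3′ on the gene's strand. Capitals mark GC boxes, the letters GGGCGG or their reverse complement CCGCCC.

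Rgs10: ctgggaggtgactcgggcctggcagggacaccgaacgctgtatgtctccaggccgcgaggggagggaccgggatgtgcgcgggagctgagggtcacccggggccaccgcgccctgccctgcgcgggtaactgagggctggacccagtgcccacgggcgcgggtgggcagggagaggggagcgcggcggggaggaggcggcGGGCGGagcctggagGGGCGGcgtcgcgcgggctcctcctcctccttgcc

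Rgs16: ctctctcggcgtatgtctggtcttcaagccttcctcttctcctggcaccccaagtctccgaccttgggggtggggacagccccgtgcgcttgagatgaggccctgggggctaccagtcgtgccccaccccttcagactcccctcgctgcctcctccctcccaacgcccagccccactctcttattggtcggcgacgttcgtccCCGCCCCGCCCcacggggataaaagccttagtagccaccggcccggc

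Rgs17: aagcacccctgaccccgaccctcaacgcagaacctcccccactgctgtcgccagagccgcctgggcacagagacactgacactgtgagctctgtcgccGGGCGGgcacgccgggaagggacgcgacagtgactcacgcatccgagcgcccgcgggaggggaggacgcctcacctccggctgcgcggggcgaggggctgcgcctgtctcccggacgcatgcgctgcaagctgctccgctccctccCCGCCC

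The Rgs10 window is chr7:128418173-128418422 on the minus strand, that of Rgs16 chr1:153740103-153740352 on the plus strand and that of Rgs17 chr10:5922401-5922650 on the minus strand. Each holds 2 GC boxes, and those of Rgs16 overlap. None holds GGAAA or TTTCC, the core letters bound by NFAT factors, which act downstream of calcium and calcineurin. Of the 32851 promoter windows in the table, 32.7% hold a GC box and 55.6% the NFAT core on either strand. Of the 10 members, 9 matched the table with 13 starts in all, of which 9 hold a GC box and 4 the NFAT core. These matches describe letters and were not tested against the expression values.

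**Figure D1:**
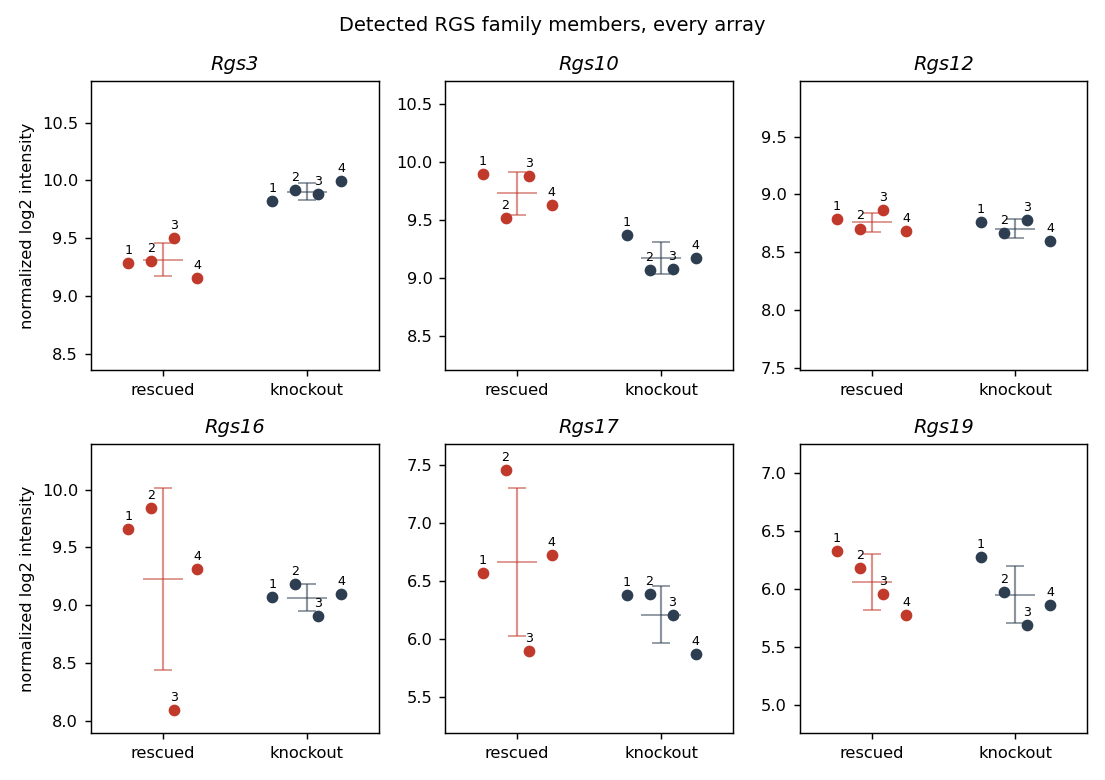
Normalized log2 intensity of the 6 detected RGS genes on every array, 1 panel per gene, with rescued arrays left (red) and knockout arrays right (dark); numbers are replicates, and bars give the mean ± SD of 4 arrays. Every panel spans the same height, so that the groups of Rgs3 and Rgs10 are seen apart and the wide rescued spread of Rgs16 and Rgs17 stands out.

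Among the R4 genes, Rgs3 fell and Rgs16 did not pass the test. Rgs3 acts on Gi and Gq subunits. Its detected probe (ILMN_1239208, annotated to transcript NM_134257) had normalized log2 intensities of 9.29, 9.31, 9.50 and 9.16 on rescued arrays 1 to 4, against 9.82, 9.92, 9.88 and 9.99 on knockout arrays 1 to 4. All 4 rescued arrays lay below all 4 knockout arrays. The difference, rescued minus knockout, was -0.59 with a standard error of 0.09 (limma, adjusted p = 0.000667), a level 0.67 times that of knockout cells with a 95% interval of 0.58 to 0.76. The 7 other Rgs3 probes, annotated to NM_019492 or NM_001081650, stayed at background intensities of 79.7 to 118, so the fall rests on 1 probe. Kept probes of chromosome 4, which holds Rgs3, had a median difference of -0.19, and with each chromosome centred the Rgs3 difference was -0.39.

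Rgs16, a small RGS protein that acts on Gi and Gq subunits, split the rescued arrays. Its probe (ILMN_2600744) stood at 9.66, 9.84, 8.09 and 9.31 on rescued arrays 1 to 4, against 9.07, 9.19, 8.91 and 9.10 on knockout arrays 1 to 4. Rescued arrays 1, 2 and 4 were above every knockout array, and rescued array 3 was below every one. In the deposited intensities, before any normalization, the rescued arrays read 919, 990.02, 381 and 719.8 units, against 598, 703, 562 and 543 units on knockout arrays 1 to 4. Rescued cells averaged 9.23 ± 0.79, against 9.07 ± 0.12 for knockout cells (SD over 4 arrays). The difference was 0.16 (limma, adjusted p = 0.728), with a 95% interval of 0.68-fold to 1.85-fold. Without rescued replicate 3 the difference was 0.54 (adjusted p = 0.00938), and without rescued replicate 2 it was -0.043 (adjusted p = 0.931).

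Rgs2, Rgs4 and Rgs5, the R4 members best known from arterial smooth muscle and pericytes, were not detected. Their intensities ranged from 96.8 to 111 for Rgs2, 88.3 to 99.97 for Rgs4 and 81.4 to 101 for Rgs5 over the 8 arrays, with lowest detection p-values of 0.0915, 0.278 and 0.268. These are readings of single probes, which do not show that the transcripts were absent. With no detection filter none of the 11 undetected member probes passed in limma (0 at an unadjusted p under 0.05, lowest adjusted p = 0.236), with differences between -0.16 and 0.18.

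Of the R12 genes, Rgs10 rose and Rgs12 did not pass. Rgs10, a compact RGS protein for Gi subunits, had log2 intensities of 9.90, 9.52, 9.88 and 9.63 on rescued arrays 1 to 4 (probe ILMN_2699531), against 9.37, 9.07, 9.08 and 9.17 on knockout arrays 1 to 4. Every rescued array lay above every knockout array. The difference was 0.56 with a standard error of 0.11 (limma, adjusted p = 0.00313), a 1.47-fold higher level with a 95% interval of 1.24 to 1.75. Rescued array 3, low for Rgs16, was among the higher 2 for Rgs10.

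Rgs12, a large multidomain protein that also binds inactive Gi subunits through a GoLoco motif, did not differ beyond the spread of its arrays. Its probe (ILMN_2686745) read 8.79, 8.71, 8.86 and 8.68 on rescued arrays 1 to 4, against 8.76, 8.67, 8.78 and 8.60 on knockout arrays 1 to 4. The groups overlapped, with a difference of 0.06 (limma, adjusted p = 0.571) and a 95% interval of 0.93-fold to 1.17-fold. Rgs14, its relative with the same motif, was not detected on any array (intensities 76.2 to 99.0).

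Neither RZ gene passed. Rgs17, which acts on Gi and Gz subunits, read 6.57, 7.46, 5.90 and 6.73 on rescued arrays 1 to 4 (probe ILMN_1219289), against 6.38, 6.39, 6.20 and 5.87 on knockout arrays 1 to 4. Rescued arrays 1, 2 and 4 were above all knockout arrays, as for Rgs16, while rescued array 3 fell within the knockout range. The difference was 0.45 (limma, adjusted p = 0.234; 95% interval 0.88-fold to 2.12-fold), 0.70 without rescued replicate 3 (adjusted p = 0.0298) and 0.19 without rescued replicate 2 (adjusted p = 0.526). Its deposited intensities were low, at 145 to 253 units on rescued arrays, against 127 to 171 on knockout arrays, and the difference was 0.24 without background correction.

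Rgs19, also called GAIP, read 6.33, 6.18, 5.96 and 5.78 on rescued arrays 1 to 4 (probe ILMN_2752044), against 6.28, 5.98, 5.69 and 5.86 on knockout arrays 1 to 4. Rescued array 1 lay above every knockout array and knockout array 3 below every rescued array, and the others overlapped. The difference was 0.11 (limma, adjusted p = 0.603; 95% interval 0.85-fold to 1.36-fold). Its deposited intensities were 137 to 163 units on rescued arrays, against 127 to 157 on knockout arrays, low on this array's scale.

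In all, 1 of the 6 kept member probes was higher and 1 was lower in rescued cells, and the groups did not overlap at these 2. Over the whole table, 38.8% of 12658 kept probes passed and 38.8% had groups that did not overlap, against 33.3% of the 6 members by either measure, so the members' share is near that of the array. Higher calls made up 20% and lower calls 18.7% of all kept probes. The median log2 difference was 0.14 over the 6 members and 0.0036 over all kept probes, and the median absolute difference 0.31 and 0.21.

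**Figure D2:**
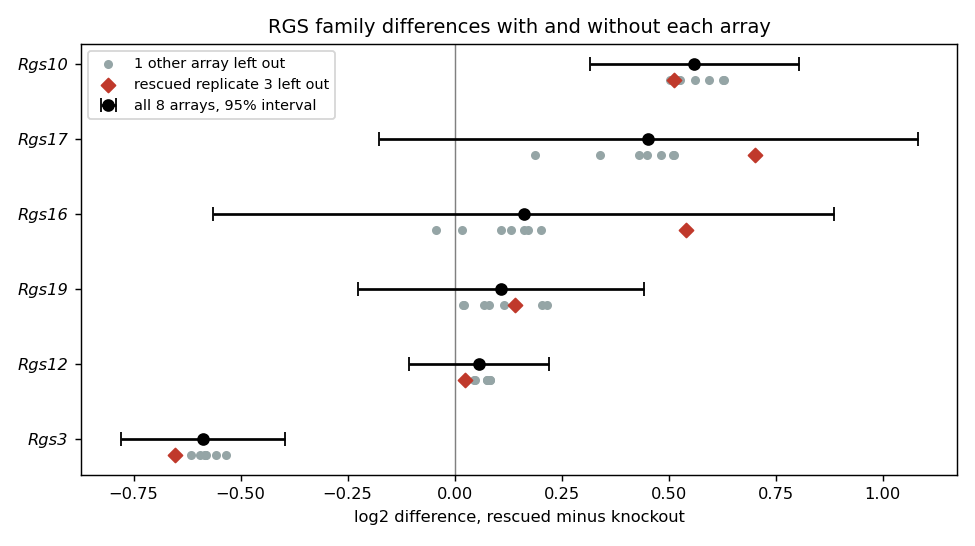
Log2 difference, rescued minus knockout, of the 6 detected RGS genes. Black points and bars give the estimate and 95% interval from all 8 arrays; grey points leave out 1 other array, and red diamonds leave out rescued replicate 3, which moves Rgs16 to 0.54 and Rgs17 to 0.70 and leaves Rgs10 and Rgs3 on their sides of 0.

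The spread among rescued arrays set Rgs16 and Rgs17 apart from the other members. The SD of log2 intensity over the rescued arrays was 0.79 for Rgs16 and 0.64 for Rgs17, larger than at 99.5% and 98.9% of all kept probes. Over the knockout arrays the SD was 0.12 for Rgs16 and 0.24 for Rgs17, larger than at 54.9% and 88.5% of kept probes. The highest rescued array of Rgs16 stood 3.35-fold above the lowest, against 1.22-fold among knockout arrays. For Rgs17 these ranges were 2.95-fold and 1.44-fold. Rgs17 was near background, however, and its deposited intensities of 145 to 253 units on rescued arrays span a smaller fold range. The ratio of rescued to knockout SD was 6.69 for Rgs16 and 2.62 for Rgs17, larger than at 97.3% and 80.6% of kept probes. The spread of Rgs17 was not analysed under other settings. Rgs3, Rgs10, Rgs12 and Rgs19 had rescued SDs of 0.14, 0.19, 0.08 and 0.24, against knockout SDs of 0.07, 0.14, 0.08 and 0.25. Rescued arrays varied more over the whole table too, with a median SD of 0.15 against 0.11 in knockout arrays and a larger rescued SD at 65.4% of kept probes.

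**Figure D3:**
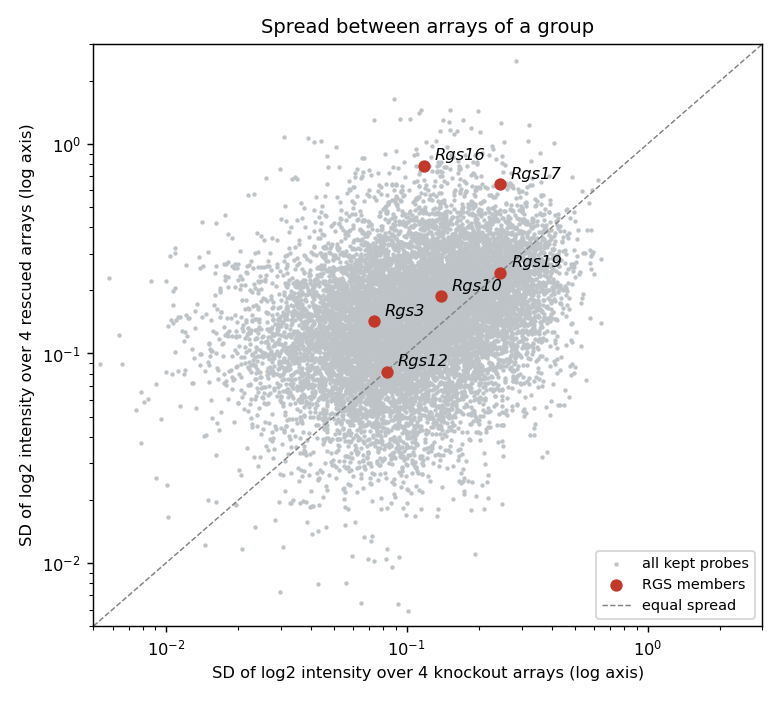
SD of log2 intensity over the 4 rescued arrays (vertical, log axis) against that over the 4 knockout arrays (horizontal, log axis), 1 point per kept probe, with the 6 RGS genes in red and the line of equal spread dashed. Rgs16, with SDs of 0.79 and 0.12, and Rgs17, with 0.64 and 0.24, lie near the upper edge, while Rgs12 and Rgs19 lie on the line.

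None of the 12 groups of member values, 6 probes in each condition, had an array beyond Dixon's 95% critical value for 4 samples. For Rgs16 the gap above rescued replicate 3, the lowest array, took 0.70 of the rescued range. For Rgs17 the largest gap, 0.47 of the range, lay below rescued replicate 2, the highest array. Over the whole table rescued replicate 3 was the rescued array that most often stood apart. It was separated from the other rescued arrays beyond that value at 2.99% of kept probes, against 0.845% to 0.885% for rescued replicates 1, 2 and 4. Cell type markers differed there too. The summed intensity of the 9 kept adventitial fibroblast markers, of 10 listed, was 20931 on rescued replicate 3. It was 6444 to 8716 on the other rescued arrays, against 13549 to 18261 on knockout arrays. The mean log2 level of these 9 markers was 9.80 on rescued replicate 3 and 8.76 to 9.17 on the other rescued arrays. That mean on replicate 3 was below every knockout array, whereas the sum was above every one. Against knockout arrays, sum and mean of the fibroblast markers thus differed in direction. Among rescued arrays, 5 of the 9 were highest and 2 lowest on replicate 3. The summed signal of 8 kept smooth muscle markers was 64092 on rescued replicate 3 and 68709 to 70140 on the other rescued arrays. On knockout arrays the smooth muscle sum was 69055 to 73129. Acta2, at a mean log2 level of 15.83 in rescued cells, was by far the brightest and carried most of this sum. The mean log2 level of the 8 was 8.85 on rescued replicate 3 and 9.12 to 9.30 on the other rescued arrays, against 9.39 to 9.58 on knockout arrays. Among rescued arrays, 6 of the 8 were lowest on replicate 3. The endothelial sum of 5 kept markers was 4034 on rescued replicate 3 and 2444 to 3186 on the other rescued arrays. On knockout arrays it was 1623 to 2053. Of the 5 markers, 2 were highest and 2 lowest on replicate 3 among rescued arrays. Their mean log2 level there was 7.28, within the 7.20 to 7.40 of the other rescued arrays. The pericyte sum of 6 kept markers was 2970 on rescued replicate 3 and 3333 to 3508 on the other rescued arrays. On knockout arrays the pericyte sum was 2905 to 3860. Among rescued arrays, however, 3 of the 6 were highest and 1 lowest on replicate 3. The mean log2 level of these 6 markers was also highest there among rescued arrays, so sum and mean differed in direction. The part of the cell type markers in the Rgs16 and Rgs17 values was not tested. In these bulk samples, fewer cells of a type and less RNA per cell cannot be told apart.

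The pattern of Rgs16 was shared by other genes. Likeness was measured as the root mean square difference over the 8 arrays, after each gene's own mean log2 level was subtracted, among 8627 other genes. The nearest was Cited2, which encodes a transcriptional coregulator, at 0.13, followed by Stbd1 (0.19), Havcr2 (0.19), Klk8 (0.20) and Gng2 (0.20). The median was 0.53 over all genes compared, and a flat pattern would stand at 0.49, so the median marks no likeness. Cited2 read 9.66, 9.91, 8.12 and 9.44 on rescued arrays 1 to 4, against 9.25, 9.01, 9.17 and 9.28 on knockout arrays 1 to 4. As for Rgs16, rescued array 3 was the lowest and arrays 1, 2 and 4 were above every knockout array. Gng2, a G gamma subunit, had the widest rescued spread of the 5, with an SD of 1.04 over rescued arrays, against 0.04 over knockout arrays. These genes were picked for their likeness, which is a description.

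**Figure D4:**
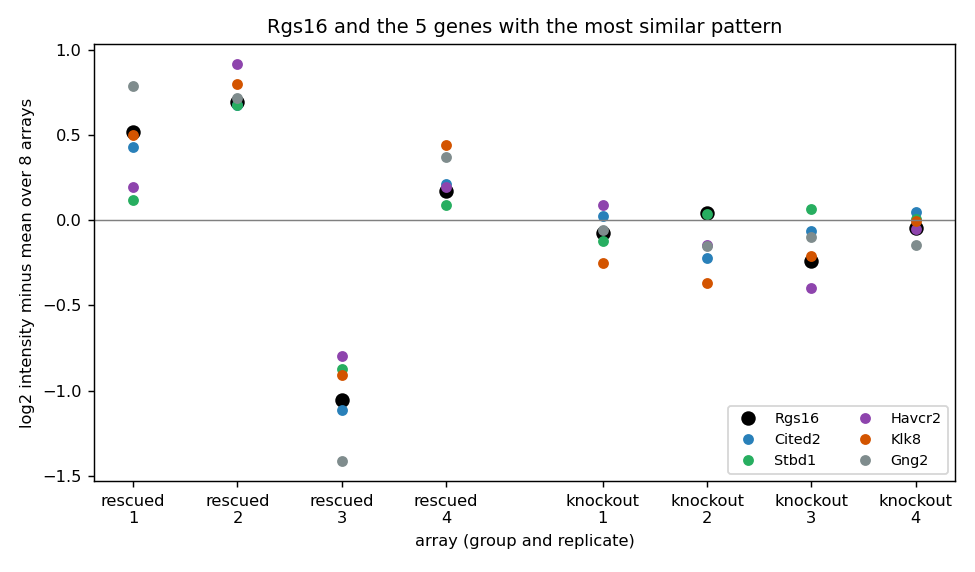
Log2 intensity minus each gene's mean over 8 arrays, for Rgs16 (black) and the 5 genes most like it, on rescued arrays 1 to 4 (left) and knockout arrays 1 to 4 (right). All 6 genes are lowest on rescued array 3, where Rgs16 stands at -1.05 and Gng2 at -1.41.

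The subunits on which RGS proteins act changed in both directions. Over all 8633 genes, each at its brightest kept probe, 39.9% passed (21% higher, 18.9% lower) and the median difference was 0.01. Of 8 measured G alpha genes, 2 passed as higher and 3 as lower, and their median difference was -0.11. Gnaq, the Gq subunit that activates phospholipase C and a substrate of Rgs3 and Rgs16, fell to 9.80 ± 0.14 in rescued cells, against 10.37 ± 0.06 in knockout cells (SD over 4 arrays; difference -0.57, limma adjusted p = 0.000714), and its second probe differed by -0.72. Gnai2, a Gi subunit that Rgs10 can act on, fell by 0.33 (adjusted p = 0.00341). Gnaz, the Gz subunit and a substrate of Rgs17, rose by 0.83 (adjusted p = 0.000257), or by 0.44 without background correction. Gna11, close to Gnaq in function, rose by 0.20 (adjusted p = 0.0263), a call lost under 7 of 20 alternatives, among them centred chromosomes (0.089).

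Among 12 measured G beta and gamma genes, 5 fell and 1 rose, and the median was -0.25. The 1 that rose, Gng13, was 2.30-fold higher (limma, adjusted p = 0.0143) and is named here after its value was seen. Gnb1 fell by 0.55, Gng8 by 0.75, Gng5 by 0.62 and Gnb5, the beta subunit that pairs with the R7 subfamily of RGS proteins, by 0.49 (limma adjusted p = 0.000192, 0.000569, 0.000964 and 0.000686). The Gnb1 difference was -0.36 with chromosomes centred and that of Gng5 -0.37 without background correction. Of the 10 other RGS genes and RGS binding proteins on the array, 9 had no kept probe, the R7 genes Rgs6, Rgs7 and Rgs9 among them. The exception, Rgs7bp, which anchors R7 proteins to membranes, differed by 0.10 without passing (adjusted p = 0.580).

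Genes for proteins with an RGS-like domain, or that bind G alpha in another way, included both higher and lower ones. Of 7 RGS-homology genes, 2 fell and 1 rose (median 0.03): the sorting nexin gene Snx13 fell by 0.69, the receptor kinase gene Grk5 by 0.48 and Snx25 rose by 0.29 (limma adjusted p = 0.000126, 0.00114 and 0.0115), its second probe differing by 0.14. With each chromosome centred on its median the Snx13 difference was -0.38. Kept probes of chromosome 12, which holds Snx13, had a median difference of -0.31. Snx14 differed by 0.10 without passing (adjusted p = 0.254). Of 5 other G alpha modulators, Gpsm1, a GoLoco protein, rose to 7.97 ± 0.08 in rescued cells, against 6.94 ± 0.08 in knockout cells (SD over 4 arrays; difference 1.03, limma adjusted p = 8.06e-06), and 4 did not pass (median of the list 0.30), among them Ric8b (0.40), Ccdc88a (0.29) and Nucb1 (-0.20). The groups of that Nucb1 probe did not overlap, and a second Nucb1 probe passed as lower (-0.29, adjusted p = 0.0189). Without background correction the Gpsm1 difference was 0.66. Of 4 arrestin genes, 2 rose and 1 fell (median 0.04). Arrb2 rose by 0.59 and Arrdc4 fell by 0.94 (adjusted p = 0.000654 and 1.12e-05), the Arrb2 difference being 0.35 without background correction, and Arrb1 rose by 0.23 (adjusted p = 0.0480), a call lost under 13 of 20 alternatives, while its second probe differed by 0.54 (adjusted p = 0.00234). Arrdc1 differed by -0.16 without passing (adjusted p = 0.432).

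Effectors lie downstream of the G proteins and receptors upstream. Of 9 effector genes 2 passed, both lower (median -0.07): the calcium release channel gene Itpr2 fell by 0.32 and the adenylyl cyclase gene Adcy8 by 0.46 (limma adjusted p = 0.00832 and 0.0435), the Adcy8 call being lost under 7 of 20 alternatives and its difference being -0.28 without background correction. Adcy1 (0.32) and Plcb4 (-0.44), an adenylyl cyclase and a phospholipase C gene, did not pass (adjusted p = 0.106 and 0.192). Of 15 measured receptor genes, 3 rose and 5 fell (median -0.09). The vasopressin receptor gene Avpr1a rose by 3.55 and the pyrimidine nucleotide receptor gene P2ry6 fell by 2.89 (adjusted p = 2.08e-06 and 5.69e-06), and a second Avpr1a probe differed by 1.56. Tbxa2r, the thromboxane receptor gene, and Lpar4, a lysophosphatidic acid receptor gene, were not detected in rescued cells. Both were detected on 4 knockout arrays, and were thus kept only through the group where they are high. Their calls, counted among the 5 that fell, add no support. On background-corrected values they were at least 1.47-fold and 1.34-fold lower. Their log2 differences were -0.72 and -0.88 with background correction, -0.25 and -0.35 without it, and -0.40 and -0.46 with an offset of 50, so these bounds hold for the main setting and not for every one. Over all 61 genes around the RGS family, 10 were higher and 18 lower, or 45.9%. Over all 8633 genes the share was 39.9% (21% higher, 18.9% lower), so that of the lists is near it. The 18 lower genes include Tbxa2r and Lpar4.

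**Figure D5:**
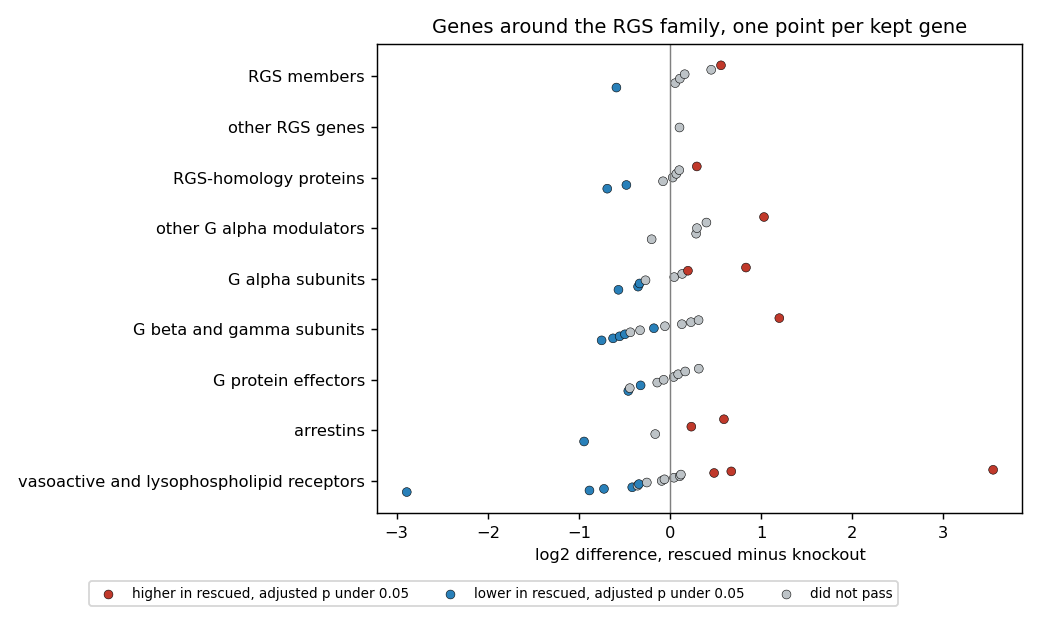
Log2 difference, rescued minus knockout, of each kept gene of the RGS family and of 8 lists of G protein signalling genes, 1 point per gene; red passed as higher in rescued cells, blue as lower, grey did not pass. The RGS members lie between -0.59 and 0.56, and Avpr1a (3.55) and P2ry6 (-2.89) lie farthest out.

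The labels call the cells vascular smooth muscle. Of 11 smooth muscle markers, 8 were kept, including Acta2 and Tagln on all 8 arrays, whereas Cnn1 and Lmod1 were detected on no array and Myh11 on 1. Between the groups 2 of the 8 were higher and 3 lower in rescued cells, with differences of -2.85 for Actg2, -1.43 for Tagln and 1.70 for Myocd. Tpm2, also counted as lower (-0.66), had a second kept probe that passed as higher (0.92, limma adjusted p = 0.0109). Of 9 kept adventitial fibroblast markers 1 was higher and 5 were lower, with -2.62 for Mfap5 and -2.23 for Pdgfra. Pecam1, Cdh5 and Ptprc, which define endothelium and leukocytes, were detected on no array, although 4 of 5 kept endothelial and 3 of 4 kept macrophage and leukocyte markers were higher in rescued cells (endothelial sum 2444 to 4034, against 1623 to 2053 in knockout cells; macrophage and leukocyte sum 1570.2 to 1645, against 744 to 859). Of the higher endothelial markers, Vwf and Nos3 were detected on 4 rescued and 0 knockout arrays. They were thus kept only through the group where they are high, and their calls add no support. Lyz2 and the smooth muscle marker Myocd were each detected on 4 rescued arrays and 1 knockout array. As for Vwf and Nos3, the rescued arrays alone met the filter. The differences of Lyz2 and Myocd are thus set against knockout levels near background. Of 6 kept pericyte markers 2 were lower in rescued cells. The part of these markers in the RGS values was not tested. Arrays had 12223 to 12873 detected probes. The kept Atp2b4 probe differed by 0.02 (limma, adjusted p = 0.911), and whether it lies in the deleted part or in the cDNA was not analysed here, so it checks no label.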

How the data were processed

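Biotin-labelled cRNA from total RNA was hybridised to Illumina arrays (1 colour), per the labels' protocols. For each array the authors deposited a linear, not normalized intensity and a detection p-value per probe, per the file headers. The deposited log2 table of the same probes has no stated processing; set against the values used here its columns differed by at most 0.0266 (medians 5.17 to 5.18), so scale and direction are the same and probes are not centred. Scanner software: not given in the sources used here.

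Intensities were background-corrected from the detection p-values, quantile-normalized and put on a log2 scale with an offset of 16, as neqc does (limma 3.58.1, R 4.3.3). Normalization gives all arrays 1 distribution, so a shift common to most transcripts would be removed. The 12658 probes with a detection p under 0.05 on 4 or more arrays were kept. Differences, rescued minus knockout, were fitted over all kept probes with lmFit and eBayes, with Benjamini-Hochberg adjustment and a threshold of 0.05. A listed gene takes the value of its brightest kept probe. For a probe undetected in 1 group, the bound sets the brighter mean against the mean of the higher of the lowest detected level and the probe's own level on each array. The number of arrays limits the precision.

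Of all probes 23978 had 1 gene symbol, 0 several and 1719 none; 23962 matched RefSeq (GRCm38.p6) by gene identifier. No pair of arrays held identical values. The members, the lists, the settings and the rule for named genes (all members; of each list up to 4 kept genes with the smallest p; the 5 genes most like Rgs16; Atp2b4) were chosen with earlier results of these data known. The fit was tested on simulated data with the same SD per probe in both groups, which does not cover unequal spreads such as that of Rgs16. Same-numbered arrays of the groups had correlations of their deviations between -0.08 and -0.003, so the numbers were not taken as pairs. Alternatives were no background correction, an offset of 50, median scaling, cyclic loess, other detection filters, a trended robust variance, array weights, the replicate block, the deposited log2 values, centred chromosomes, probe averages, an adjusted p under 0.01 and each array left out. Slides and scan dates were not analysed here.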

Additional observations from a re-analysis of the deposited data

How the results depend on the processing

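Rgs3 and Rgs10 passed in the same directions under all 20 alternatives that fitted them, with differences of -0.65 to -0.39 and 0.49 to 0.63. Centring each chromosome gave the smallest Rgs3 difference. Rgs12 and Rgs19 passed under none. Leaving out 1 array gave 2 to 4 member probes passed, 4148 to 5072 probes over the whole table, 23 to 28 list genes and an SD of Rgs16 among rescued arrays of 0.27 to 0.96. The 4 member probes came without rescued replicate 3, where Rgs16 (0.54) and Rgs17 (0.70) passed as well; without rescued replicate 2 the Rgs16 difference reversed to -0.043, so leaving out 1 array moved it between -0.043 and 0.54, and that of Rgs17 between 0.19 and 0.70. Array weights gave Rgs16 0.40 and centred chromosomes 0.064, neither passing. The cause was not tested. Every other alternative gave 2 member probes. An adjusted p under 0.01 left 3037 probes. With the replicate block, 2 member probes and 4206 probes passed, with 24 list genes. Differences of probes near background were smaller without background correction, as for Rgs17 (0.24), Rgs19 (0.043), Gnaz (0.44), Tbxa2r (-0.25) and Lpar4 (-0.35), and undetected members have no measured difference.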
